A study of Homo sapiens with 4 samples.

Results

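The regions described here are places at the ends of protein-coding genes where the repressor BCL6 was found in both replicates of a CUT&RUN experiment in SUDHL5 cells. Peaks of the deposited lists that shared at least 1 bp were merged, and merged regions on chromosomes 1 to 22 and X were selected on the presence of a peak from each replicate and on a midpoint no more than 1 kb from where a protein-coding gene begins or ends. This rule gave 442 of the 1311 regions shared by both replicates (33.7%, Wilson 95% interval 31.2 to 36.3), out of 7371 merged regions in all. The other shared regions lay inside gene bodies (511) or between genes (358). The regions were thus chosen by the deposited peak calls, so their number is a description and carries no test.

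The study concerns a bivalent molecular glue that brings lysine acetyltransferases to BCL6, and this experiment maps BCL6 in SUDHL5, a human line of diffuse large B-cell lymphoma. Per the labels, BCL6 was profiled in 2 biological replicates and IgG in 2 others, each from 500000 nuclei and 14 PCR cycles, all of the one line grown in RPMI with serum, with no genetic change and no treatment named for either group. IgG values were not analysed here, which leaves 1 group of 2 samples, no comparison over samples and no p-value. The BCL6 lists held 5237 and 3536 peaks, library totals are unknown, and the median summit pileup (fragments stacked over the highest point of a peak, solved from the deposited values) was 23 in replicate 1 and 21 in replicate 2.

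BCL6 is a transcription factor with a BTB domain that recruits co-repressors and zinc fingers that bind DNA. It is needed for germinal centre B cells, in which it holds down genes of activation, cell cycle arrest and plasma cell differentiation, and lymphomas of that origin often depend on it. Its best known sequence is a 9-base palindrome close to the site of STAT factors. In CUT&RUN an antibody brings a nuclease to the protein it binds, and the DNA fragments cut free nearby are sequenced.

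The sequences that bear on these regions are promoter stretches from RefSeq (GRCh38.p14, the assembly called hg38), read 5′ to 3′ on the strand of the gene, with positions counted from the start given in that table. The first, at CISH, are shown because 4 palindromes TTCNNNGAA, in capitals, lie close together under one of the stronger regions. CISH encodes a feedback inhibitor of cytokine signalling and belongs to the genes known to be bound by BCL6. The first stretch covers positions −250 to −221 (chr3:50611995-50612024, minus strand) and the second covers −130 to −101 (chr3:50611875-50611904, minus strand). Both lie upstream of CISH and inside the annotated span of the neighbouring gene MAPKAPK3.
CISH upstream: cgccccgttTTCCTGGAAagTTCTTGGAAa
CISH near the summits: gTTCTAGGAAgacgctgcTTCCGGGAAggg

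The next 4 stretches are shown because they hold the full BCL6 consensus, TTCCTAGAA read on either strand (TTCTAGGAA is its reverse complement), inside a shared region. The consensus is in capitals. All 4 lie upstream of the table's start. VPS35 (−150 to −51, chr16:46689229-46689328, minus strand) encodes a subunit of the retromer, which returns cargo from endosomes. ICE2 (−200 to −101, chr15:60479243-60479342, minus strand) encodes a part of the little elongation complex for small nuclear RNA genes, and its stretch overlaps the antisense gene RORA-AS1. TTC32 (−150 to −1, chr2:19901984-19902133, minus strand) also carries a palindrome with CGCG at its centre, in capitals near the end of the stretch. TFG (−250 to −151, chr3:100709040-100709139, plus strand) encodes a protein of endoplasmic reticulum exit sites.
VPS35: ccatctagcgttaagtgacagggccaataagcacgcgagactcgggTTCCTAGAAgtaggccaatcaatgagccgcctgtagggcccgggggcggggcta
ICE2: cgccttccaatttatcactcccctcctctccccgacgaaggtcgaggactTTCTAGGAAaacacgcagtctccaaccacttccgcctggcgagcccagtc
TTC32: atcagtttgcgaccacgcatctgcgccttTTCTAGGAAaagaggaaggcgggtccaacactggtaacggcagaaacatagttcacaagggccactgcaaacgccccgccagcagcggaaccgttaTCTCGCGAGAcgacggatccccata
TFG: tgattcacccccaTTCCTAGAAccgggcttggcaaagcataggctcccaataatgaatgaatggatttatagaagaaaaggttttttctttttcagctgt

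The last 2 show members without that consensus. H4C12 (−150 to −1, chr6:27831561-27831710, minus strand), which encodes a histone H4, is shown for its place beside one of the strongest histone regions, with a TATA box (TATAAA) in capitals at position −31. Its promoter window holds neither CCAAT nor the octamer ATGCAAAT that many histone promoters have. The shared region upstream of H4C12 does not cover that box. NFKBIZ (−230 to −201, chr3:101827760-101827789, plus strand) encodes an inhibitor-like regulator of NF-kB and carries an NF-kB match GGGAATTTCC in capitals inside its shared region.
H4C12: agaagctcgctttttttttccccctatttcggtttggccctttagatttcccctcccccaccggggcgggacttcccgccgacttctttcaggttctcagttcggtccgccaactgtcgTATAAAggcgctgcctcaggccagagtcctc
NFKBIZ: ttggtctGGGAATTTCCagtgtgcagaaaa

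The first question was which end of a gene these regions mark. The strand of a gene was known for 376 of the 442 regions, and 357 of these (94.9%, 92.2 to 96.7) lay within 1 kb of a 5′ end. They divided into 323 at a 5′ end only, 34 at a 5′ and a 3′ end and 19 at a 3′ end only. Without the regions at histone genes, whose bodies are so short that both ends fall into the window, 333 of 342 (97.4%, 95.1 to 98.6) were at a 5′ end. The same share among regions of 1 replicate alone was 828 of 883 (93.8%) in replicate 1 and 528 of 552 (95.7%) in replicate 2. Over all genes, 519 of 19974 (2.6%) had a shared region within 1 kb of either end. Of the 15812 genes with a known strand, 419 (2.65%) had one at the 5′ end and 49 (0.31%) at the 3′ end. In single lists 8.41% of genes with a known strand had a region of replicate 1 at the 5′ end and 6.32% one of replicate 2.

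Fold enrichment, which is the authors' own value per peak (summit pileup over local background, each plus 1), had a median of 3.50 in replicate 1 and 3.77 in replicate 2 over the 442 regions. It ranged from 1.84 to 18.8 in replicate 1 and from 2.12 to 18.2 in replicate 2. In 337 regions (76.2%) the replicates were within 1.5-fold of each other, and in 49 both exceeded or equalled 5. Compared with the 869 shared regions elsewhere, those at gene ends had higher median pileups (35 and 30 against 29 and 24) and higher median backgrounds (9.15 and 7.40 against 6.88 and 5.19). Their median fold enrichments were lower (3.50 and 3.77 against 3.83 and 3.88). Higher median pileups thus went with higher median backgrounds, and which library gave the backgrounds is not given in the sources used here. Regions are not replicates, and these medians were not tested.

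**Figure D1:**
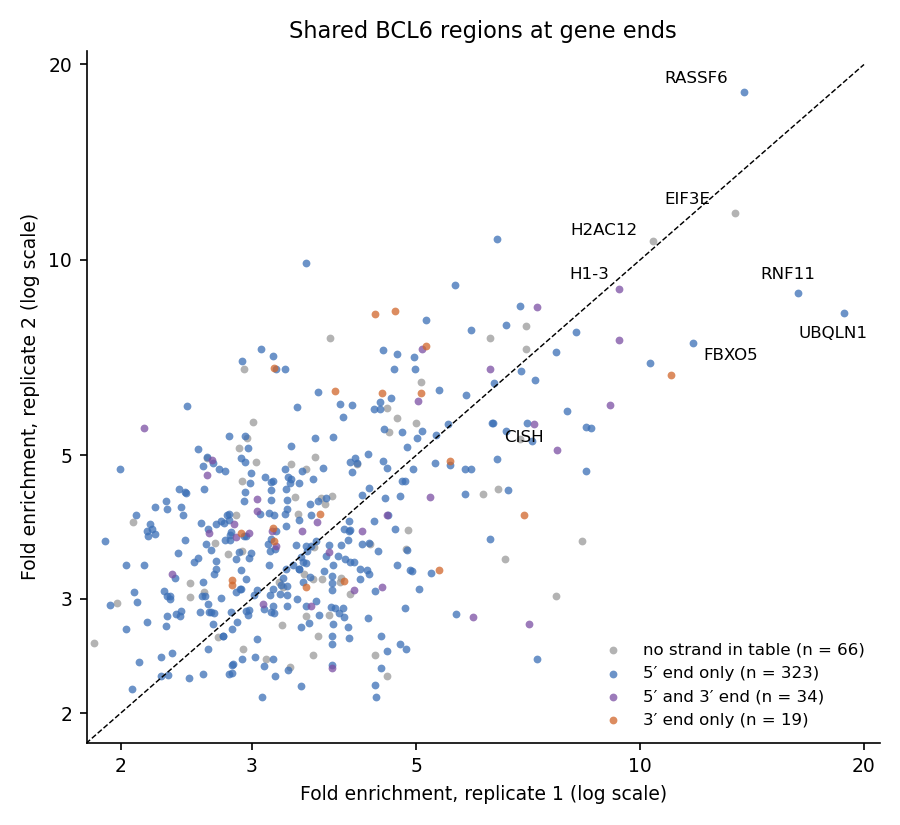
Fold enrichment of the 442 shared regions at gene ends in replicate 1 (horizontal axis) and replicate 2 (vertical axis), both log scales without unit, each point 1 region coloured by the end of the gene it lies at, the dashed line marking equal values. Most regions lie between 2 and 5 on both axes, and a few, among them RASSF6, EIF3E, UBQLN1 and RNF11, stand far above.

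Regions at the 5′ end of a single gene were led by RASSF6, a member of the family of proteins that bind Ras-like GTPases. Its region (chr4:73618144-73621532) had fold enrichments of 13.8 and 18.2 in replicates 1 and 2, on pileups of 128 (exact Poisson 95% interval 107 to 152) and 98 (79.6 to 119). The summits were 602 and 600 bp inside the gene. RNF11, a RING finger ubiquitin ligase, had values of 16.3 and 8.88 with summits 1291 and 1299 bp upstream. UBQLN1, which carries ubiquitinated proteins to the proteasome, had 18.8 and 8.27 with summits 552 and 501 bp upstream. For RNF11 and UBQLN1 replicate 1 was the higher, by more than 1.5-fold, and for RASSF6 it was the lower.

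FBXO5, the inhibitor of the anaphase-promoting complex also known as EMI1, had fold enrichments of 11.8 and 7.43 with summits 160 and 190 bp downstream of its start. TARS1, the threonyl-tRNA synthetase, had 7.71 and 7.20. HSP90B1, the chaperone of the endoplasmic reticulum, had 6.89 and 8.49 with pileups of 105 and 95. These 3 regions were above the member median in both replicates. EIF2S3, which encodes the gamma subunit of the initiation factor that brings the first tRNA, had a region on either side of its start. The one downstream had fold enrichments of 7.98 and 5.84, and the one upstream had 5.51 and 5.57. Only 7 genes had more than 1 shared region at the 5′ end (EIF2S3, RHOH, UHRF2, USP3 and the histone genes H2AC4, H4C12 and H4C2).

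The other single 5′ ends among the 12 strongest belonged to genes of different roles. MGAT5, an enzyme of N-glycan branching and next after UBQLN1 by the smaller value, had fold enrichments of 8.19 and 7.75 with summits 224 and 210 bp upstream. CLOCK, a transcription factor of the circadian clock, had 6.90 and 6.74 with summits 371 and 116 bp upstream. COL19A1, a collagen chain, had 7.23 and 6.53, GALR2, a receptor for galanin, had 6.41 and 10.8, and FBXO4, an F-box protein of a ubiquitin ligase, had 6.36 and 6.46. Among genes without a strand in the table, EIF3E, a subunit of translation initiation factor 3, stood highest with 13.4 and 11.8.

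The next question was where BCL6 lay around the start. Over the 333 regions at 5′ ends of genes other than histones, the summits lay mostly on either side of a sparse stretch just upstream of the start. In replicate 1, 104 summits lay 600 to 200 bp upstream, 19 in the 200 bp before the start and 140 in the 400 bp after it. In replicate 2 the counts were 93, 28 and 131. So the 200 bp upstream of the start held fewer summits than the bin on either side, 67 and 90 in replicate 1 and 65 and 83 in replicate 2. With each gene's nearest start in the RefSeq promoter table in place of its outermost end, an alternative chosen after seeing the data, the 3 bins held 74, 22 and 100 summits in replicate 1 and 69, 34 and 90 in replicate 2.

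The replicates' summits were then set side by side in regions that were selected for overlapping peaks, which keeps the summits close. Of the 357 regions at 5′ ends, histone genes included, 312 (87.4%) had both summits on the same side of the start, and in 241 (67.5%) the summits were within 200 bp of each other, with a median distance of 69 bp. The summit was upstream in 42.0% of them in replicate 1 and 42.3% in replicate 2. The merged region covered the start itself in 178 (49.9%). Which start SUDHL5 cells use was not measured.

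**Figure D2:**
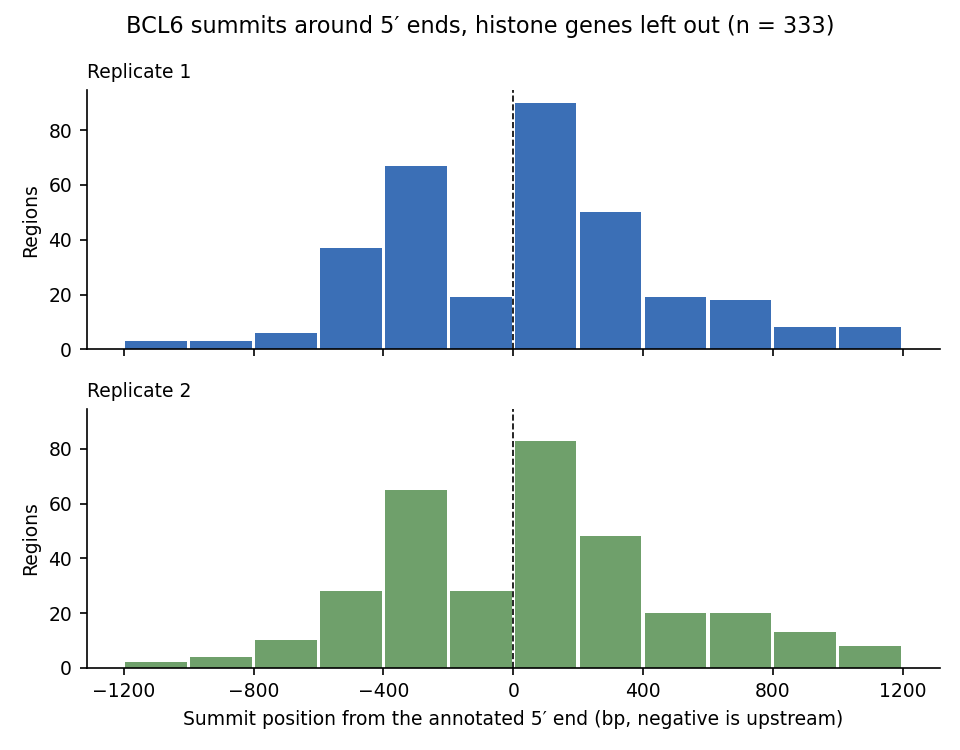
Number of shared regions (vertical axis) by position of the BCL6 summit from the annotated 5′ end in bp (horizontal axis, bins of 200 bp, negative upstream), for 333 regions at 5′ ends of genes other than histones, replicate 1 above and replicate 2 below. In both panels the bin just upstream of the start is low (19 and 28 regions) between the bin before it (67 and 65) and the bin after the start (90 and 83), and 5 and 4 summits lie beyond 1200 bp and are not drawn.

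In head-to-head pairs, as counted here, a minus-strand gene starts at most 1 kb before a plus-strand gene along the chromosome. Genes whose 5′ ends overlap, as at CISH and MAPKAPK3, and genes without a strand in the table were not counted as pairs. Head-to-head pairs made up 52 of the 357 regions at 5′ ends (14.6%, 11.3 to 18.6). The annotation holds 814 such pairs with a median gap of 175 bp, and 55 of them (6.76%) had a shared region, with a median gap of 216 bp. Of the 1605 genes in pairs, 103 (6.42%, 5.32 to 7.72) had a shared region at the 5′ end, against 316 of 14207 other genes (2.22%, 1.99 to 2.48). A region at a pair counts for both of its genes, so the gene share is raised by construction, and 48 of the 52 regions were within 1 kb of both starts. The median fold enrichments were 3.65 and 3.42 at pairs and 3.36 and 3.79 at all other 5′ ends, higher at pairs in replicate 1 and lower in replicate 2.

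The gap between the starts is short beside the window, so few summits could lie between them. They did so in 8 of 52 regions in replicate 1 and in 12 in replicate 2, while 21 and 22 lay on the side of the gene on the minus strand and 23 and 18 on the side of the gene on the plus strand. The pair LRRIQ3 and FPGT, the latter an enzyme that makes GDP-fucose, start 66 bp apart, and their region had fold enrichments of 10.3 and 6.92 with both summits on the LRRIQ3 side. MITD1, a protein of cell abscission, and MRPL30, of the mitochondrial ribosome, start 126 bp apart and had 6.60 and 7.94 on the MITD1 side. ERP29, an endoplasmic reticulum protein, and TMEM116 had 5.93 and 7.78 on the ERP29 side. NACC1, a BTB domain factor, and TRMT1, a tRNA methyltransferase, had 6.60 and 5.45 on the NACC1 side.

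VPS35 forms a pair with ORC6, a subunit of the origin recognition complex. Their starts are 481 bp apart and, unlike at the 4 pairs above, both summits fell between them, 137 and 136 bp from the BCL6 consensus printed above. The fold enrichments were 4.86 and 5.15 on pileups of 147 and 115, the highest pileup of all 442 regions in each replicate, over a high local background.

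Regions at 3′ ends were in large part at histone genes. Of the 19 regions at a 3′ end only, 10 were at histone genes, and 21 of the 34 at both ends were too. Outside histones 13 regions lay at both ends and 9 at a 3′ end only, the latter at REM2 (2 regions), TBC1D19, ANXA2R, ARHGAP26, FNBP1, NMB, UNC79 and PRKRIP1. TBC1D19, a protein with a domain that acts on Rab GTPases, had 4.68 and 8.34 on pileups of 68 and 63. The stronger region at REM2, a small GTPase that regulates calcium channels, had 5.54 and 4.90. The region at ANXA2R, a receptor for annexin A2, had 6.98 and 4.04 and also lay 673 bp from a start of ANXA2R in the promoter table. It was the only one of the 9 with a start of that table within 1 kb, and the nearest start to the TBC1D19 region was that of the antisense RNA STIM2-AS1, at 1079 bp.

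Replication-dependent histone genes, the intronless genes that supply histones in S phase, were the gene class with the largest share among the 12 classes counted. Of the 69, 38 had a shared region at an end (55.1%, 43.4 to 66.2), beside 2.6% of all protein-coding genes. Histone genes lie close together, so a region can count for several of them, as at H3C4, H2AC7 and H2BC7. This raises the gene share by construction, and the interval treats genes as independent. By family these were 11 of 15 H4 genes, 10 of 17 H2A, 8 of 13 H3, 6 of 18 H2B and 3 of 6 H1. On chromosome 6, which holds the main cluster, 34 of 55 had one, on chromosome 1, 3 of 13, and the 1 gene on chromosome 12 had one. The 40 histone regions had median fold enrichments of 4.85 and 5.30, above 3.42 and 3.70 in the 402 others. Their median pileups of 37 and 29.5 were close to 35 and 30 in the others, and their median backgrounds were lower (6.39 and 4.96 against 9.67 and 7.42).

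Some histone regions were among the strongest, below RASSF6 and EIF3E. H2AC12, an H2A gene, had fold enrichments of 10.4 and 10.7 with a region 988 bp from an end of the gene. H1-3, a linker histone, had 9.369 and 9.003, and the upstream region of H4C12 had 9.36 and 7.52. The region at the 3′ end of H4C15 had 11.0 and 6.65, and that of H2BC21 had 5.14 and 7.36. The annotated model of H4C15 is 16753 bp long, and the summits lay 17182 and 17086 bp from its 5′ end. H2BC5, also counted among the histone genes with a region, has a model of 13229 bp. Its summits lay 13646 and 14459 bp from its 5′ end. At H4C11 the region beyond the 3′ end had 5.08 and 6.24, at H2AC11 4.49 and 6.24, and at H2AC7 4.40 and 8.24. Of the 10 histone regions at a 3′ end only, 2 also had a start of the promoter table within 1 kb. The region at H2AC7 was 822 bp from a start of H3C4, and that at H2BC5 was 722 bp from a start of H2BC6-AS1. Histone genes of the same family can resemble each other in their coding sequence, so some reads might map to several of them. How the authors placed such reads is not given in the sources used here. Whether this affected the regions, whose summits lay mostly beside the genes, was not tested.

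At histone genes most summits lay beside the gene. Over 40 pairs of a histone gene and a region, the summit was upstream in 18 and beyond the 3′ end in 21 in replicate 1, with 1 inside the gene. In replicate 2 it was upstream in 16, beyond the 3′ end in 22 and inside in 2. A region near several histone genes is counted for each of them, so the same summit can fall in both groups. The summits upstream of H3C10, for example, are also those beyond the 3′ end of H2AC13. The summits beyond the 3′ end include those at the long models of H4C15 and H2BC5, far from the annotated 5′ end. Counting every annotated histone gene, long gene models included, the summit of 4 of the 40 regions in replicate 1 and of 5 in replicate 2 was inside one. The annotation holds 61 histone genes of up to 1 kb, and 28 of them had a shared region and a known strand. Of these 28, 7 had a region on each side (H1-2, H2AC4, H2AC7, H3C10, H4C11, H4C12 and H4C2). Of the 13 head-to-head pairs of histone genes, 6 had a shared region. At H2AC14 and H2BC14 the values were 7.72 and 5.10 with both summits beyond the H2AC14 gene, and at H2AC7 and H2BC7 they were 5.09 and 7.28 with both summits on the H2BC7 side.

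**Figure D3:**
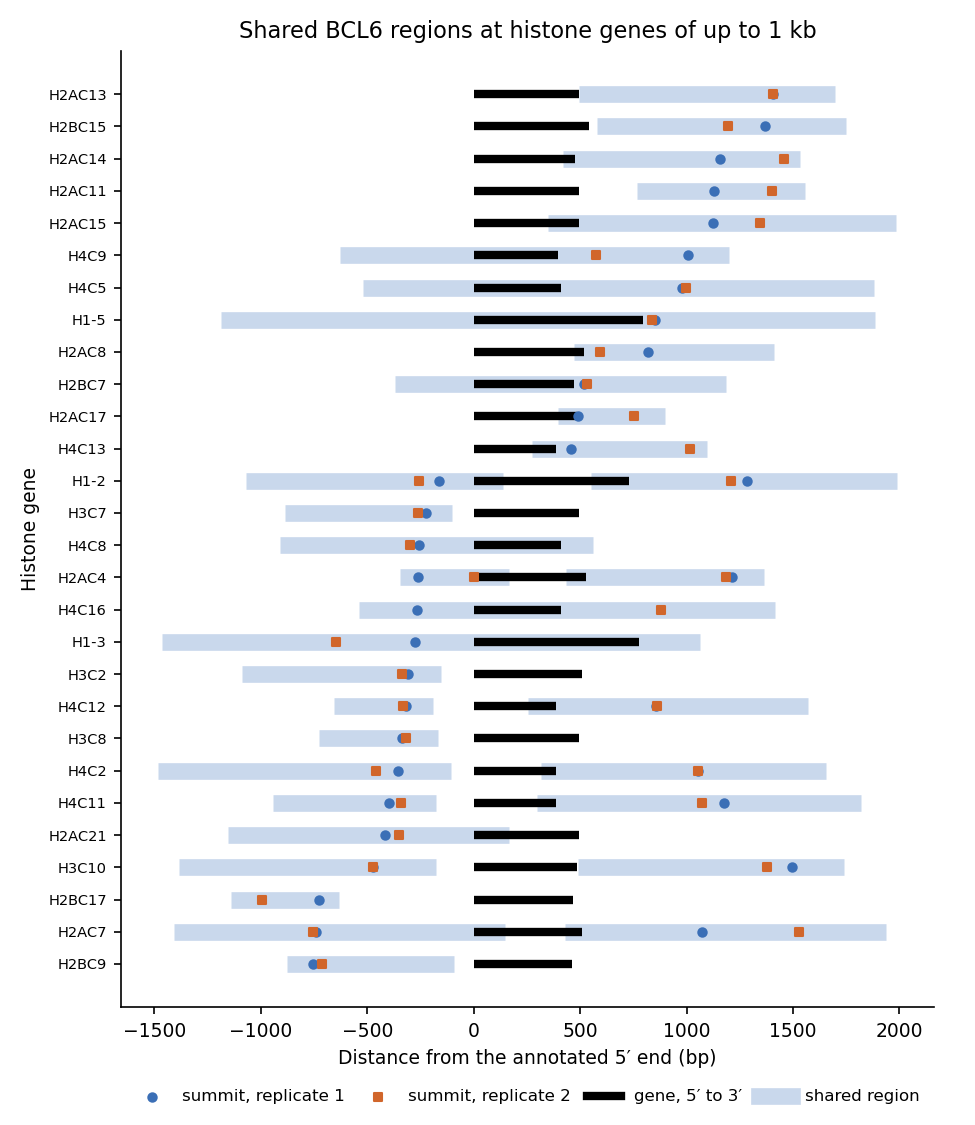
Shared regions (pale bars) and BCL6 summits of replicate 1 (circles) and replicate 2 (squares) at 28 histone genes of up to 1 kb, 1 gene per row, by distance in bp from the annotated 5′ end along the gene (horizontal axis), the gene drawn as a black bar. In replicate 1, 16 summits lie before the gene, 19 after it and 0 inside, in replicate 2, 14, 20 and 1, and 5 longer histone gene models are not drawn. A region near several of these genes is drawn and counted in the row of each.

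Among other classes of genes, those for splicing factors and RNA helicases had a shared region in 11 of 124 (8.87%, 5.03 to 15.2). Those with symbols of translation factors had one in 5 of 69 (7.25%, 3.13 to 15.9). The share of all protein-coding genes was 2.6%. Classes were drawn by symbol, and the 5 include EEF1AKMT1, a lysine methyltransferase rather than a translation factor. HNRNPD, which binds AU-rich mRNA, had fold enrichments of 5.36 and 6.29 with summits 450 and 462 bp upstream. SNRPA, a protein of the U1 splicing particle, had 4.82 and 4.56, and DDX50, a helicase of the nucleolus, had 3.86 and 5.33. Within this class 5 of the 12 SR splicing factors had a region (SRSF1, SRSF3, SRSF6, SRSF7 and SRSF8), a family chosen after its values were seen. Their fold enrichments were between 2.82 and 4.54. EIF2S2, the beta subunit of the same factor as EIF2S3, had 2.79 and 3.52.

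Most other classes lay near the background of 2.6%. Shared regions were at 8 of 233 genes of ubiquitination and the proteasome (3.43%), of which FBXO5 and FBXO4 are named above and USP3, a deubiquitinase of histones, had 3.39 and 4.60 in its stronger region. They were at 2 of 77 mitochondrial ribosomal protein genes, MRPL30 and MRPL9, the latter with 3.34 and 4.43. RPL15 was the one cytosolic ribosomal protein gene of 86, with 4.32 and 4.44. UQCRC2 (3.20 and 2.93) and NDUFA9 (4.48 and 2.35) were the 2 of 109 respiratory chain genes.

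In larger families, genes with a zinc finger symbol (ZNF, ZFP, ZBTB and similar, mostly C2H2 factors) had a shared region at 9 of 609 (1.48%, 0.779 to 2.78). One of the 9 was ZFP36, which has CCCH fingers. The strongest were ZNF852 with 6.13 and 4.36, ZNF235 with 3.55 and 9.90, and ZNF608 with 3.77 and 3.50. Solute carriers had 6 of 386 (1.55%, 0.714 to 3.35), and both intervals include 2.6%. The strongest were SLC7A6, SLC44A5 and SLC38A1, with values from 3.49 to 4.95. Olfactory receptors had 0 of 392 (upper Wilson bound 0.970%), keratins 0 of 149 (2.51%) and kinesin and tubulin genes 0 of 68 (5.35%). In all, 413 of the 519 genes with a shared region were in none of these classes or of the 12 lists below.

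**Figure D4:**
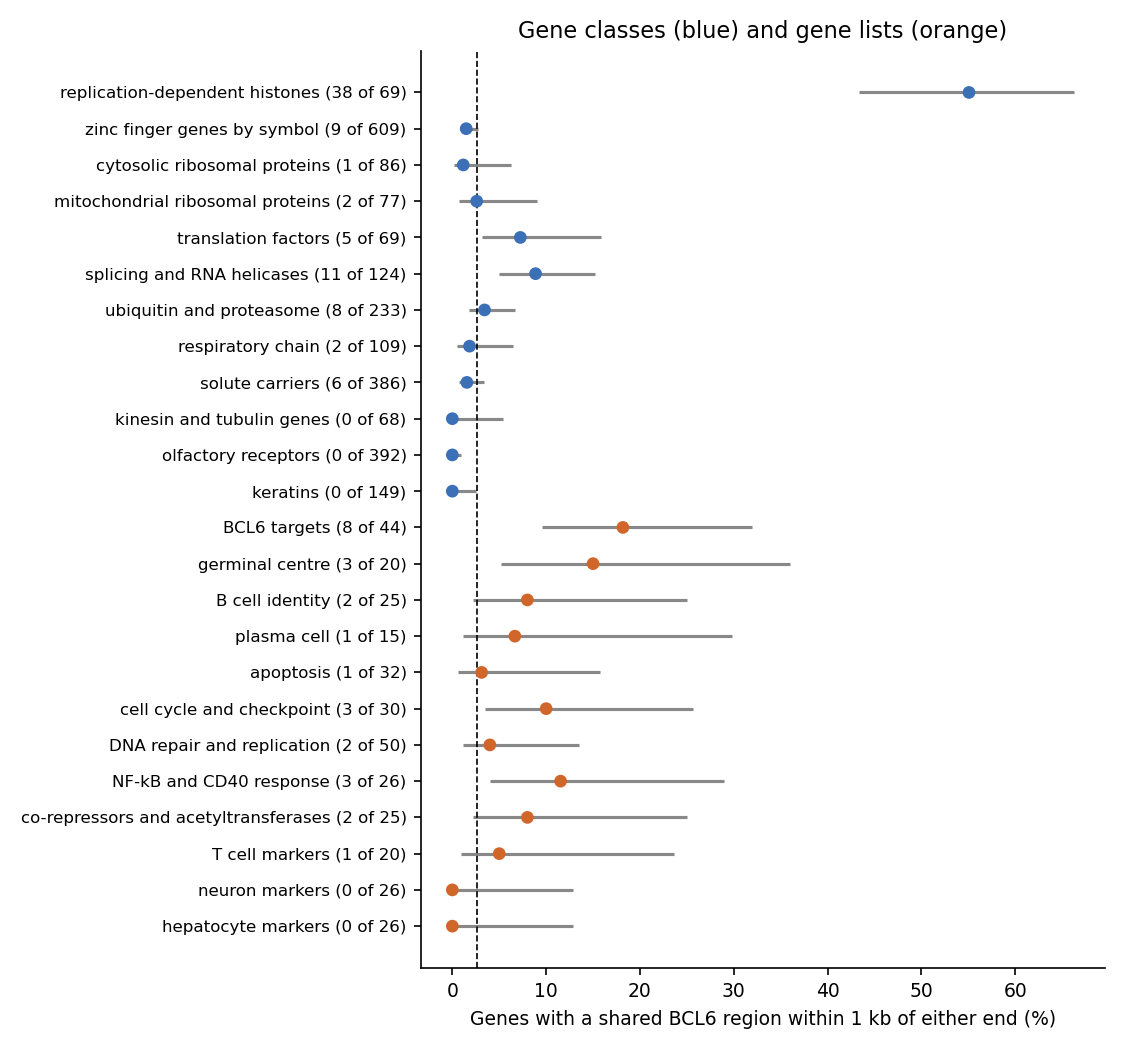
Percent of genes with a shared BCL6 region within 1 kb of either end (horizontal axis) for 12 gene classes (blue) and 12 gene lists (orange), with Wilson 95% intervals as lines and the count of genes beside each name. The dashed line is the 2.6% of all 19974 protein-coding genes, and the histone genes stand apart at 55.1%. A region near several genes counts for each of them, which raises the share of closely spaced genes such as histones.

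Of 44 genes known as BCL6 targets, 8 had a shared region at an end (18.2%, 9.51 to 32.0), against 2.6% of all genes. The list was drawn up with earlier results of these data known, so this share is no independent support. CISH had the highest smaller fold enrichment, with 6.35 and 5.60 on pileups of 49 and 42, with summits 146 and 145 bp upstream and 21 and 20 bp from the TTCTAGGAA printed above. ID2, an inhibitor of helix-loop-helix factors, had 4.31 and 5.02 with summits 712 and 725 bp upstream. NFKB1, the precursor of the p50 subunit, had 4.01 and 3.46 with summits 662 and 657 bp downstream of its start. MYC had 3.01 and 5.62, ARID3A, a DNA-binding factor of B cells, 2.89 and 5.13, and CDKN1B, the cell cycle inhibitor p27, 2.81 and 3.76. The early activation antigen CD69 had 4.40 and 2.46, and DUSP5, a phosphatase of ERK, had 4.57 and 2.28. MYC, ARID3A, CD69 and DUSP5 have no strand in the table, so which end their regions mark is not known here.

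Other lists of genes of B cells gave 1 to 3 genes each, against 2.6% of all genes. The germinal centre list had 3 of 20 (15.0%, 5.24 to 36.0), at LMO2, a transcriptional adaptor (3.65 and 4.96), DAPP1, a B cell signalling adaptor (4.40 and 3.09), and ELL3, an elongation factor (2.64 and 2.87). NF-kB and CD40 response genes had 3 of 26 (11.5%, 4.00 to 29.0), NFKB1 with NFKBIA, which encodes the inhibitor IkB-alpha (2.95 and 2.88), and NFKBIZ (2.35 and 3.28). Cell cycle and checkpoint genes had 3 of 30 (10.0%, 3.46 to 25.6), CDKN1B with BTG2, an antiproliferative gene (3.47 and 3.34), and CDKN2A, whose products include p16 (3.49 and 2.20). The CDKN2A region was counted at the outermost annotated 5′ end, which need not be the start of the p16 transcript. Genes of B cell identity had 2 of 25 (8%, 2.22 to 24.97), at CD22 (2.66 and 4.92), where the region lies at the 3′ end of CD22 and the 5′ end of FFAR1, and at CD79B, of the B cell receptor (2.48 and 3.17). CD79B has no strand in the table. The plasma cell list had CD38 alone of 15 genes (6.67%, 1.19 to 29.8), at 4.16 and 4.85, with summits 359 and 354 bp upstream.

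Among 25 genes of co-repressors and acetyltransferases 2 had a region (8%, 2.22 to 24.97), an interval that includes the 2.6% of all genes. They were KDM1A, the histone demethylase LSD1 (4.20 and 3.22), and KAT2B, the acetyltransferase PCAF (2.40 and 2.83). Apoptosis genes had 1 of 32 (3.13%, 0.554 to 15.7), BCL2L11, which encodes the pro-apoptotic BIM (3.12 and 2.90). RAD51D, a protein of homologous recombination on the list of DNA repair genes, had 2.22 and 3.78. Genes of other cell types gave 1 of 20 T cell markers (5%, 0.888 to 23.6), CD3E of the T cell receptor complex (3.26 and 3.19), 0 of 26 neuron markers and 0 of 26 hepatocyte markers (upper Wilson bound 12.9% for each). CD3E has no strand in the table.

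BCL6 itself was not among the 442 regions. A shared region covers its 5′ end (chr3:187744913-187749446, fold enrichments 6.38 and 11.5), and the summit was 132 bp upstream of the start in both replicates. The region is so wide that its midpoint lies 1711 bp upstream, outside the window. Near the limit of the window, just inside lay NFKBIA (993 bp, 2.95 and 2.88), EGR3, an immediate early transcription factor (990 bp, 7.71 and 3.03), and H2AC12 (988 bp). Just outside lay VPS9D1 (1002 bp, 3.64 and 3.64), STIM2, a calcium sensor (1003 bp, 5.45 and 5.57), and SLC30A4, a zinc transporter (1003 bp, 4.74 and 6.90).

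The sequence of the promoters was then described, in windows of 300 bases from 250 before to 50 after the start, with 1 window per gene for 14541 genes and 399 genes with a shared region at the 5′ end. The windows are fixed to the start and are not the bound regions. Windows of neighbouring genes can overlap or be the same, so a match can count for more than 1 gene. The intervals below treat windows as independent. In 91 of the 399 windows a summit of at least 1 replicate lay inside, and in 24 the summits of both. A window was called CpG-rich where its GC content was at least 50% and its ratio of observed to expected CpG at least 0.6. Of the windows with a shared region 75.2% (70.7 to 79.2) were CpG-rich, against 64.4% of all. Without histone genes it was 79.9% of 373 (75.5 to 83.6), below the 87.0% of 862 windows with a region of replicate 1 only and the 84.4% of 559 with one of replicate 2 only.

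CpG content was also set beside the strength of the regions. Among the 200 windows whose region had the higher smaller fold enrichment 69.5% (62.8 to 75.5) were CpG-rich, and among the other 199 it was 80.9% (74.9 to 85.8). The intervals overlap, and no test was made. The 26 histone windows with a region had a median GC content of 42.7%, and 2 of them (7.69%) were CpG-rich.

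Matches to the BCL6 sequence were few. Each motif was searched on both strands of the 300-base windows, and a match is a description of letters, not a site. The consensus TTCCTAGAA was in 7 of 373 windows with a region and no histone gene (1.88%, 0.912 to 3.82), against 43 of 14541 windows in all (0.296%). In the windows with a region of 1 replicate alone it was in 3 of 862 (0.348%) for replicate 1 and 1 of 559 (0.179%) for replicate 2. The intervals of these last 2 shares, 0.118 to 1.02 and 0.0316 to 1.01, overlap that of the shared regions. The 7 windows were those of CISH and MAPKAPK3, which share 1 position, VPS35, ICE2, TTC32, TFG and IPO11. So there were 6 positions, and all but that of IPO11, an importin, lay inside the shared region.

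At 5 of the 6 positions the summits of both replicates were within 200 bp of the motif. The distance from the motif to the summit was 21 and 20 bp at CISH, 30 and 86 bp at TFG, 105 and 59 bp at ICE2, 137 and 136 bp at VPS35, 95 and 141 bp at IPO11 and 228 and 261 bp at TTC32. ICE2 had fold enrichments of 4.95 and 4.76, TTC32 3.98 and 5.73, TFG 4.06 and 3.82, and IPO11 3.36 and 2.33. Apart from VPS35 the pileups of these 6 regions were between 17 and 49.

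The wider palindrome TTCNNNGAA, which includes the consensus and also fits STAT factors, was in 43 of the 373 windows (11.5%, 8.67 to 15.2), against 6.88% of all windows and 5.41% of all CpG-rich ones. It was in 8.82% (7.10 to 10.9) of windows with a region of replicate 1 only and 7.16% (5.30 to 9.60) with one of replicate 2 only. By fold enrichment it was in 31 of the 200 windows with the stronger regions (15.5%, 11.1 to 21.2) and in 13 of the 199 with the weaker ones (6.53%, 3.86 to 10.9), histones included. At CISH 4 such matches lay at −241, −230, −129 and −112, all inside its region. The form between the consensus and this palindrome, TTCCTNGAA, was in 10 of the 373 windows (2.68%, 1.46 to 4.86), against 1.32% of all and 0.918% of CpG-rich ones. It was in 1.97% (1.23 to 3.14) of windows with a region of replicate 1 only and 1.43% (0.727 to 2.80) with one of replicate 2 only. Both of these intervals overlap that of the shared regions.

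Motifs of other factors were counted in the same windows. The ETS motif CCGGAAG was in 23.9% (19.8 to 28.4) of the 373 windows, against 14.7% of all and 20.3% of CpG-rich ones. The NRF1 motif was in 16.4% (12.9 to 20.4), against 8.84% and 13.2%. The CGCG palindrome, printed in capitals at TTC32, was in 11 windows (2.95%, 1.65 to 5.20), against 0.715% of all and 1.07% of CpG-rich ones. The NF-kB motif, GGGA and TTTCC with any base between them as at NFKBIZ, was in 7 (1.88%, 0.912 to 3.82), against 0.564% and 0.598%. The intervals of the CGCG palindrome and the NF-kB motif did not reach the share of all CpG-rich windows, and those of ETS and NRF1 did. PRH1 and PRH1-TAS2R14 have the same window, counted for each with the CGCG palindrome. MITD1 and MRPL30 have overlapping windows, both counted with the NF-kB motif. The intervals treat windows as independent, so no conclusion is drawn from where they end. In windows with a region of replicate 1 or 2 only the shares were 22.2% and 20.4% for ETS, 15.4% and 13.1% for NRF1, 1.16% and 1.07% for the CGCG palindrome and 1.16% and 0.894% for NF-kB. The intervals of these overlap those of the shared regions.

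The GC box GGGCGG, bound by SP factors, was in 63.3% (58.3 to 68.0) of the 373 windows, between 59.1% of all and 79.1% of CpG-rich ones. The YY1 motif AANATGGCG was in 8.85% (6.37 to 12.2), against 5.04% and 7.10%. Intervals of the remaining motifs, 19 having been searched in all, reached the share of all windows or of CpG-rich ones. These were TATAAA in 33 windows, the octamer in 4, the CRE TGACGTCA in 6, the E-box CACGTG in 33, CCAAT in 144, the PU.1 motif GAGGAAGT in 13, the AP-1 motif TGANTCA in 16 and the motif of interferon regulatory factors in 14. Matches to ZNF143 and CTCF were in 0 of the 373 (upper Wilson bound 1.02%), against 0.399% and 0.055% of all windows.

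Histone windows had another set of letters, with or without a shared region. A TATA box was in 16 of 26 with a region (61.5%, 42.5 to 77.6) and 26 of 38 without (68.4%, 52.5 to 80.9), against 9.77% of all windows. The octamer, bound by OCT factors, was in 10 of 26 (38.5%) and 16 of 38 (42.1%), against 1.73%. The box CCAAT was in 20 of 26 (76.9%) and 34 of 38 (89.5%), against 36.7%. None of the 26 held TTCCTAGAA, and 1 held TTCNNNGAA.

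**Figure D5:**
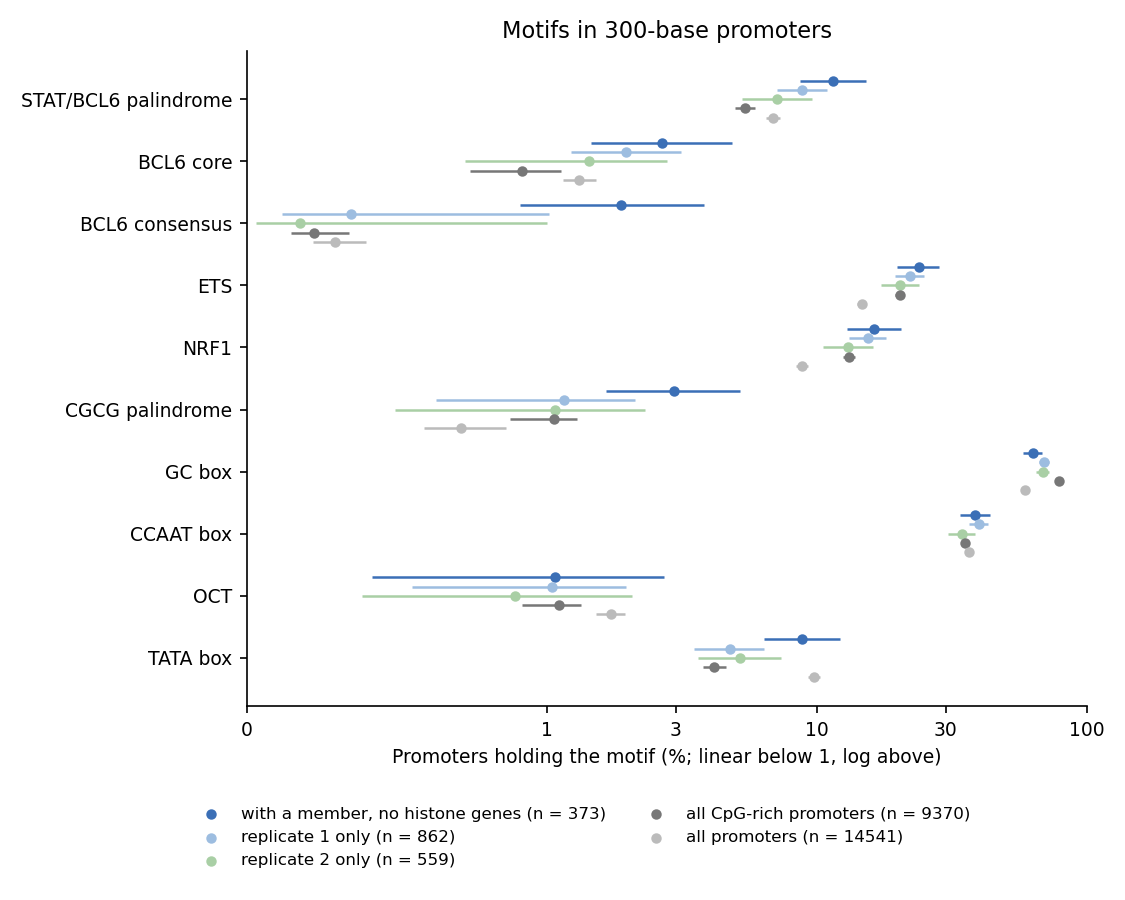
Percent of 300-base promoter windows holding each motif on either strand (horizontal axis, linear below 1 and log above), with Wilson 95% intervals as lines, for genes other than histones with a shared BCL6 region, genes with a region of 1 replicate only, all CpG-rich windows and all windows. The BCL6 consensus (1.88% against 0.296%) and the CGCG palindrome (2.95% against 0.715%) show the widest spacing between shared regions and all windows.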

How the data were processed

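Peak lists of 2 BCL6 libraries were used; IgG values were not analysed here. The submitters' processing notes name build hg38 and MACS2, Bowtie2, cutadapt, FastQC, Picard, SAMtools, deepTools and bedtools; versions, settings and the peak caller's control are not given in the sources used for this text. The authors' deposited lists, called per sample, give for each peak a fold enrichment (ratio), −log10 p, −log10 q and a summit. The deposited score is 10 times −log10 q and was not used. The smallest deposited −log10 q was 1.31 in each list.

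The pileup and background at each summit were solved from the deposited fold and −log10 p, for 5232 of 5237 and 3530 of 3536 peaks and for every shared region described. Intervals of pileups cover counting error only. Peaks sharing at least 1 bp were merged. Where a region held several peaks of a list, the one with the highest −log10 q gave its values. Gene ends came from RefSeq (GRCh38.p14) and strands from its promoter table, for 15812 of 19974 genes (79.2%); 66 regions at the other genes were given no direction. No genome sequence was used here, so sequence came from the promoter table alone. Named genes were, by the smaller fold enrichment, the 12 strongest at 5′ ends only, 8 at 3′ ends only, 6 at pairs, up to 3 of each class or list, 3 regions on each side of the window's limit, and BCL6; the other BCL6 targets, SRSF genes and motif-bearing genes were named after their values were seen. The members, classes and lists were chosen with earlier results of these data known. No test was made: there is 1 group of 2 samples. Python 3.11.15, pandas 2.3.3 and scipy 1.17.1 were used, and the merging, pileup and position steps were tested on simulated data. One gene class and one gene are not reported here.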

Additional observations from a re-analysis of the deposited data

How the results depend on the processing

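Of 66 recomputed values over 8 results 37 stayed close to the reported value, for counts within 1.5 times and for others within their interval or spread. The number of shared regions at gene ends (442) was 267 where the overlap had to be reciprocal and at least 50%, 312 and 548 with windows of 500 bp and 2 kb, 185 with −log10 q of at least 5, 76 with at least 10, and 1103 to 1468 with either replicate's list alone. The share at 5′ ends (94.9%) was 92.1% and 90.8% at −log10 q of at least 5 and 10, and the share at head-to-head pairs (14.6%) was 18.6% at 10. The median smaller fold enrichment (3.15) was 4.07 and 5.11 at 5 and 10, by construction. In single lists, where the list's own fold enrichment took the place of the smaller value, the median was 3.26 to 3.61. The median summit position (102.5 bp downstream) was 85.25 with reciprocal overlap, 76.25 and 147 with windows of 500 bp and 2 kb, 20.5 and 76.5 at 5 and 10, and 112 to 115 in single lists.

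The share of genes with a shared region at the 5′ end (2.65%) was 1.58% with reciprocal overlap, 1.83% and 3.24% with windows of 500 bp and 2 kb, 1.07% and 0.487% at 5 and 10, and 6.31% to 8.42% in single lists. The CpG-rich share (75.2%) was 69.0% at 10, 63.2% with an observed over expected CpG of at least 0.75, and 80.8% to 83.3% in single lists. The share with TTCCTNGAA (2.51%) was 8.45% at 10, from 6 of 71 windows. Where no cause is given, the cause was not tested. Library totals are unknown, so depth was not matched between the replicates and its part in these results was not tested. No paired analysis was possible because only peak lists of the BCL6 group were used, and no result comes from a test. IgG values were not analysed here. Whether an IgG library entered the deposited fold enrichments as the control is not given in the sources used.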
